A study of Mus musculus with 6 samples.

Results

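Messages of the mitochondrial ribosomal proteins were measured in cultures of mouse bone marrow cells with and without midkine. The genes were chosen by name alone, as every symbol of the table that starts with Mrpl (large subunit) or Mrps (small subunit) followed by a digit. This gave 77 genes of 15443 symbols, 48 of them Mrpl and 29 Mrps. They lie on 17 chromosomes, with 11 of them on chromosome 11. None of the 77 was lost to the filter on low values, and the lowest read number of any of them in any library was 19. The midkine group held 3 libraries (replicates 3, 4 and 5) from cells given recombinant human midkine at 10 ng/ml, a heparin-binding growth factor that cells secrete. The control group held 3 libraries (replicates 1, 2 and 4) without it. All 6 came from marrow flushed out of C57BL/6J mice, an inbred strain, of genotype WT, and no sorting step is named. All were kept for 3 days with FLT3LG at 50 ng/ml, the cytokine that dendritic cell progenitors depend on. The labels do not tell separate mice or cultures apart from repeat samples of 1 culture, nor do they give the age of the mice. The spread behind each p-value may thus be technical.

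The mitochondrial ribosome translates the few messages encoded by mitochondrial DNA, all of them for subunits of the respiratory chain and ATP synthase. Its ribosomal RNAs, mt-Rnr2 in the large subunit and mt-Rnr1 in the small one, are transcribed from mitochondrial DNA, while all its proteins are encoded in the nucleus, made in the cytosol and imported. Part of the proteins have homologs in the bacterial ribosome, and the rest are specific to mitochondria. Promoters of nuclear genes for mitochondrial proteins often carry sites for the transcription factors NRF1, GABP (an ETS family factor) and YY1. In dividing marrow cells, as in other growing cells, these genes form part of the growth programme that MYC is known to stimulate.

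Stretches just upstream of 4 of these genes, each described below, are shown as examples. Mrpl28 passed the test with lower values once 1 midkine library was left out, and Mrpl17, Mrpl20 and Mrps14 had all midkine libraries above all controls, with no annotated exon of another gene over theirs. They were chosen after their values were seen. Each is a RefSeq promoter sequence on build GRCm38.p6, read 5′ to 3′ on the gene's strand and limited to the last 120 bases before the start that lie outside annotated exons. They come from chr17:26123383-26123499 (+ strand) for Mrpl28, chr7:105811100-105811207 (− strand) for Mrpl17, chr4:155802758-155802877 (+ strand) for Mrpl20 and chr1:160195095-160195214 (+ strand) for Mrps14. Capitals mark a match to the NRF1 letters, which are GCGCA and GCGC with any 1 base between them, on either strand.
Mrpl28: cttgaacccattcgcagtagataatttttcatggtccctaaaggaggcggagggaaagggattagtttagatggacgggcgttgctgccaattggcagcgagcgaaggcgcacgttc
Mrpl17: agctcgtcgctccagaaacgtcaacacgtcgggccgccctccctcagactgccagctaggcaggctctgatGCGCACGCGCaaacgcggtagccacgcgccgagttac
Mrpl20: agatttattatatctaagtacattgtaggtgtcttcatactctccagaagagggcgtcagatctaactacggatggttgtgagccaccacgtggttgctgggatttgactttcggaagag
Mrps14: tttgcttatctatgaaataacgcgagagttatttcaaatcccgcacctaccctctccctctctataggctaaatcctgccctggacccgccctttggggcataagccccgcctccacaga

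Whole promoter windows of 300 bases (250 before to 50 after the start) were found for 68 of the 77 genes. A gene may have several windows, and a match in any of them counted. The NRF1 letters stood on either strand in 13 of the 68 genes (19.1%), against 5.19% of the 27025 genes in the RefSeq table. That table is not limited to genes measured here, and the shares over the genes tested are not given. The ETS letters CCGGAAG stood in 25 (36.8%), against 9.93% of all genes in the RefSeq table. The YY1 letters AAGATGGC stood in 12 (17.6%), against 3.19% of all genes in the RefSeq table. The motifs were searched separately, and a window may hold several. A match describes the letters in the window, not a bound site.

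Values are normalized counts, that is, reads divided by a size factor of the library. The kit yields 1 fragment per transcript near its 3′ end, so levels of different genes can be set side by side without scaling to length. Libraries held 6042165 to 7233960 reads with midkine and 5985684 to 6415043 reads in control. The 77 genes together took 0.316, 0.297 and 0.407% of the reads in midkine 3, 4 and 5, against 0.327, 0.299 and 0.318% in control 1, 2 and 4. Midkine 5 was set apart from the rest of the libraries in this and in most measures below, so results are given with and without it. The labels state RNA integrity for the samples as a whole and not for single libraries, so whether midkine 5 is of the same quality as the others was not tested, and every value on all 6 libraries rests on it too. Summed levels of marker genes of several cell types differed between the groups as well. The numbers of markers below are those with a value, not those that moved alike, and the highest genes lead each sum. Against their sums, 1 of 7 conventional and 1 of 4 plasmacytoid dendritic cell markers had a log2 fold change above 0. Likewise 1 of 7 monocyte and macrophage markers had one below 0. Midkine 5 lay above all controls for 2 of the 4 plasmacytoid, 1 of the 7 conventional dendritic cell and 1 of the 4 stromal markers. It lay below all controls for 2 of the 7 monocyte and macrophage and 1 of the 8 neutrophil markers. Of the 3 erythroid markers with a value, midkine 5 lay above all controls for 1. The summed level of 7 of 7 conventional dendritic cell markers was 824 to 1002 normalized counts with midkine and 1555 to 1621 in control. That of 7 of 7 monocyte and macrophage markers was 15992 to 18434 with midkine and 11100 to 12600 in control. For 4 of 4 markers of dividing cells it was 5570 to 9316 with midkine and 13460 to 14015 in control. The summed level of 8 of 8 neutrophil markers was 174635 to 186847 with midkine and 123348 to 138290 in control, and that of 3 of 4 mast cell and basophil markers was 505 to 848 with midkine and 262 to 367 in control. For 3 of 5 erythroid markers it was 72.6 to 145 with midkine and 30.8 to 52.3 in control. For 4 of 4 stromal markers it was 323 to 487 with midkine and 589 to 1057 in control, and for 4 of 4 plasmacytoid dendritic cell markers 3561 to 3714 with midkine and 4299.6 to 4591 in control. For 5 of 5 B cell markers the summed level overlapped between the groups, with 965 to 1925 with midkine and 862 to 1224 in control. Midkine 3 and midkine 4 each lay above all controls for all 5, and midkine 5 did for 2. Without midkine 5, limma called all 5 higher with midkine (9.92% of all genes tested were called higher). Of the markers of T and NK cells, Nkg7 and Klrb1c had values, Klrb1c was at 0 in a library, and the summed level was 36.3 to 62.8 with midkine and 34.8 to 49.3 in control. Fewer cells of a type and less RNA per cell cannot be told apart in such bulk samples, and the part of cell composition in the results below was not tested.

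**Figure D1:**
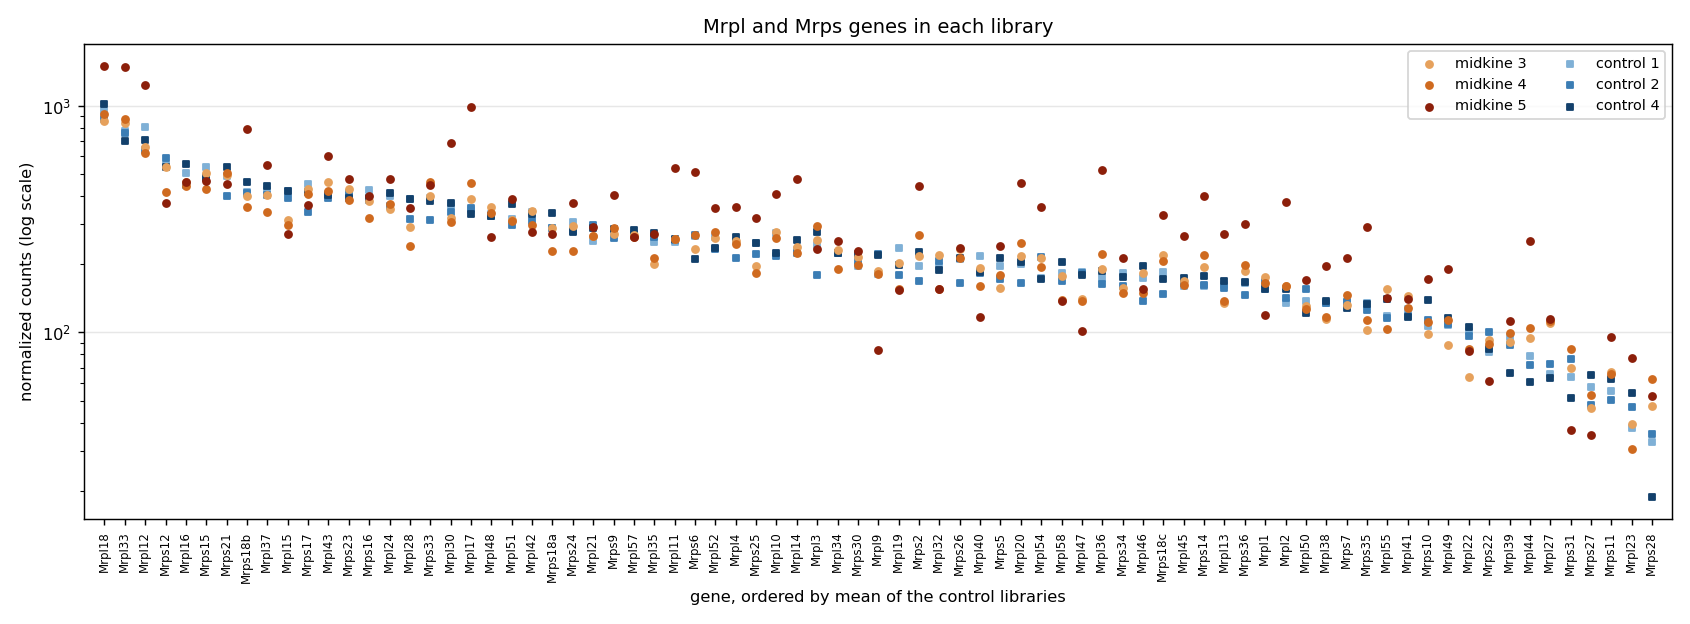
Normalized counts of each of the 77 genes (log axis) in midkine 3, 4 and 5 (circles) and control 1, 2 and 4 (squares), with genes ordered by their control mean. Levels run down to Mrps28 from Mrpl18, and midkine 5 is the point farthest from the rest for many genes, above them for 46 genes and below for 14.

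The summed level of the 48 Mrpl messages was 12460, 12113 and 17741 normalized counts in midkine 3, 4 and 5, against 12830, 12054 and 12933 in control 1, 2 and 4. That of the 29 Mrps messages was 7102, 6829 and 8996 with midkine, against 7218, 6663 and 7204 in control. Both sums showed the same pattern, in which midkine 3 and 4 lay between the controls and midkine 5 lay above all 5 other libraries. The sums go by name. That of Mrps includes Mrps18a and Mrps30, whose proteins sit in the large subunit, and Mrps36, which is not a ribosomal protein. Over the 77 genes the median log2 difference from the control mean was 0.01 in midkine 3, −0.07 in midkine 4 and 0.32 in midkine 5. Over all 13543 genes tested, those medians were within 0.011 of 0 in each midkine library. Midkine 5 had the highest value of the 6 libraries for 46 of the 77 genes (59.7%; 34.6% of all genes tested) and the lowest for 14 (18.2%; 33.7% of all genes tested).

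**Figure D2:**
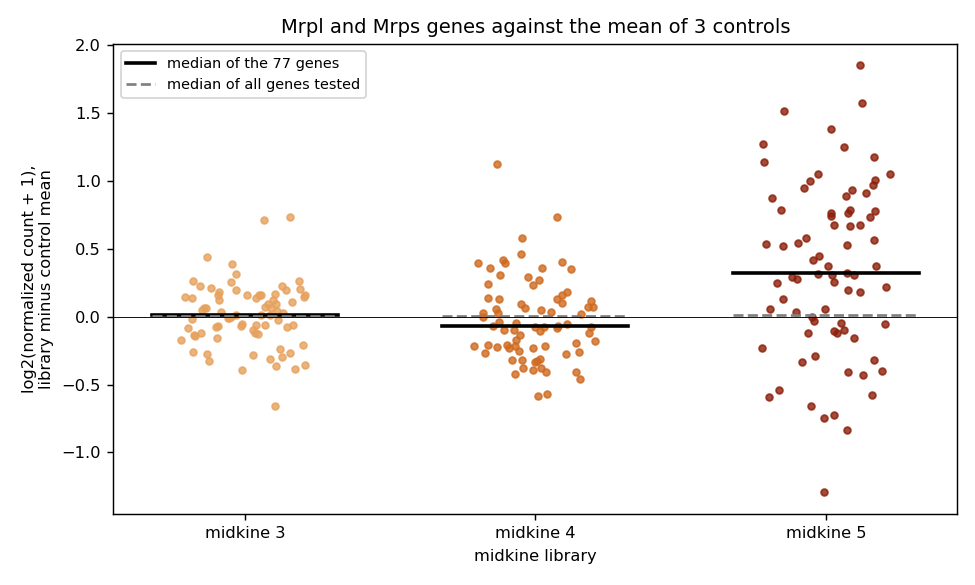
Difference of midkine 3, 4 and 5 from the mean of the 3 controls, in log2(normalized count + 1), with 1 point per gene for the 77 genes, a solid line at their median and a dashed line at the median of all genes tested. The points of midkine 5 spread widely around a median of 0.32, while the medians of midkine 3 and midkine 4 were 0.01 and −0.07.

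Between the groups, limma on all 6 libraries called 0 of the 77 genes at an adjusted p under 0.05 (background 0.00% of 13543 genes). At an unadjusted p under 0.05 it had 7 of the 77 (9.09%), against 19.7% of all genes tested. Of these, 5 had higher means with midkine (Mrpl27, Mrps28, Mrpl44, Mrps18c and Mrps14; 10.4% of all genes tested) and 2 had lower ones (Mrpl15 and Mrpl47; 9.30% of all genes tested). The quasi-likelihood test of edgeR called 0 of the 77 (0.0738% of all genes), and DESeq2 called 1, Mrpl27 (5.92% of all genes with an adjusted p). The array weights of limma, which weigh each library by its agreement with its group, called 20 (26.0%, against 37.5% of all genes tested). Of the 20, 9 were higher with midkine and 11 lower, and shares by direction over all genes tested are not given here. Midkine 4 had a weight of 4.36, the highest of the 6, beside 0.727 for midkine 3 and 0.0967 for midkine 5. The median log2 fold change of the 77 genes was 0.05 (quartiles −0.07 and 0.29), beside −0.004 over all genes tested, and 47 were above 0 and 30 below. Without midkine 5 the median of the 77 was −0.03, and 57 kept their sign. The share of all genes tested that kept their sign is not given here.

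All 3 midkine libraries lay above all 3 controls for 15 of the 77 genes (19.5%; 15.5% of all genes tested) and below them for 5 (6.49%; 15.3% of all genes tested). The 15 were Mrpl2, Mrpl17, Mrpl20, Mrpl27, Mrpl33, Mrpl36, Mrpl41, Mrpl43, Mrpl44, Mrps11, Mrps14, Mrps18c, Mrps28, Mrps33 and Mrps36. The 5 were Mrpl15, Mrpl22, Mrpl47, Mrps12 and Mrps18a. The split moved with the scaling. It was 11 above and 8 below with quantile normalization (14.3% and 15.9% of all genes) and 17 above and 3 below with TMM (16.2% and 14.8% of all genes). With midkine 3 and 4 alone set against the controls, 16 of the 77 lay above them (20.8%; 23.8% of all genes tested) and 16 below (20.8%; 23.8% of all genes tested). Library by library, midkine 3 lay above all controls for 25 genes and below them for 22 (32.1% and 32.4% of all genes tested). Midkine 4 lay above them for 24 and below for 32 (35.8% and 35.4% of all genes tested), and midkine 5 above for 50 and below for 18 (41.8% and 41.1% of all genes tested). Midkine 5 was the library with the most genes outside the control range, and more of them lay above it than below. Of the midkine means, 9 were at least 1.5-fold the control mean (13.9% of all genes tested), 0 were at or under the inverse of that (11.4% of all genes tested), and 68 lay between. Without midkine 5 only Mrpl27 and Mrps28 were at least 1.5-fold (9.05% of all genes tested).

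Without midkine 5, limma on the remaining 5 libraries called 4 of the 77 genes (5.19%), against 18.4% of all genes tested. Mrpl27 and Mrps28 rose (9.92% of all genes did) and Mrpl15 and Mrpl28 fell (8.52% of all genes did). The same 4 were called by edgeR without midkine 5, where the share of all genes tested was 18.5%. The share of these genes called was thus below that of the table as a whole in both tests. Each is described next with its value in every library.

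Mrpl27 encodes a large-subunit protein whose bacterial homolog reaches into the peptidyl transferase centre, where peptide bonds form. It had 110.2, 112 and 114 normalized counts in midkine 3, 4 and 5, against 65.6, 72.6 and 63.1 in control 1, 2 and 4. The groups did not overlap, and midkine 5 lay beside the other 2 midkine libraries. The means were 112 ± 2.09 with midkine and 67.1 ± 4.92 in control (SD, n = 3 each). The log2 fold change was 0.73 (SE 0.168) with a limma adjusted p of 0.0934 on all 6 libraries, and 0.72 (SE 0.170) with a limma adjusted p of 0.00652 without midkine 5. DESeq2 on all 6 gave an adjusted p of 0.0425. Mrpl27 lies at chr11:94653767-94660089 (+ strand, GRCm38), and its exons overlap exons of Eme1 on the other strand. No source used here gives the strand setting of the counting, so reads of such a pair cannot be told apart.

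Mrps28 encodes a small-subunit protein and had the lowest control level of the 77. Its values were 47.4, 62.3 and 52.6 normalized counts in midkine 3, 4 and 5, against 32.8, 35.8 and 18.7 in control 1, 2 and 4. The groups did not overlap, and control 4 was low within its group. The log2 fold change was 0.91 (SE 0.289; limma adjusted p = 0.162) on all 6 libraries and 0.93 (SE 0.279; limma adjusted p = 0.0267) without midkine 5. Leaving out 1 library at a time gave log2 fold changes of 0.63 to 1.08. The gene lies at chr3:8802146-8923918 (− strand, GRCm38) with no exon of another gene over its own.

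Mrpl15 encodes a large-subunit protein with a bacterial homolog. It had 313, 299 and 273 normalized counts in midkine 3, 4 and 5, against 422, 394 and 420.1 in control 1, 2 and 4. Every midkine library lay below every control. The means were 295 ± 20.3 with midkine and 412 ± 15.7 in control (SD, n = 3 each). The log2 fold change was −0.48 (SE 0.142; limma adjusted p = 0.143) on all 6 libraries and −0.43 (SE 0.111; limma adjusted p = 0.0121) without midkine 5. The gene lies at chr1:4773206-4785739 (− strand, GRCm38), with no overlapping exon.

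Mrpl28 encodes another large-subunit protein with a bacterial homolog, and its upstream stretch printed above held no NRF1 match. It had 291, 242 and 354 normalized counts in midkine 3, 4 and 5, against 387, 315 and 389.6 in control 1, 2 and 4. Midkine 5 lay between the controls, and midkine 3 and 4 lay below all of them. The log2 fold change was −0.31 (SE 0.188; limma adjusted p = 0.383) on all 6 libraries and −0.45 (SE 0.131; limma adjusted p = 0.0232) without midkine 5. With all 6 libraries kept but weighted, the array weights of limma called it as well (log2 fold change −0.57, adjusted p = 0.000659). Among the midkine libraries that value rests mostly on midkine 4, whose own log2 difference from the control mean was −0.58. The setting called 37.5% of all genes tested. The gene lies at chr17:26123500-26126613 (+ strand, GRCm38), with no overlapping exon.

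**Figure D3:**
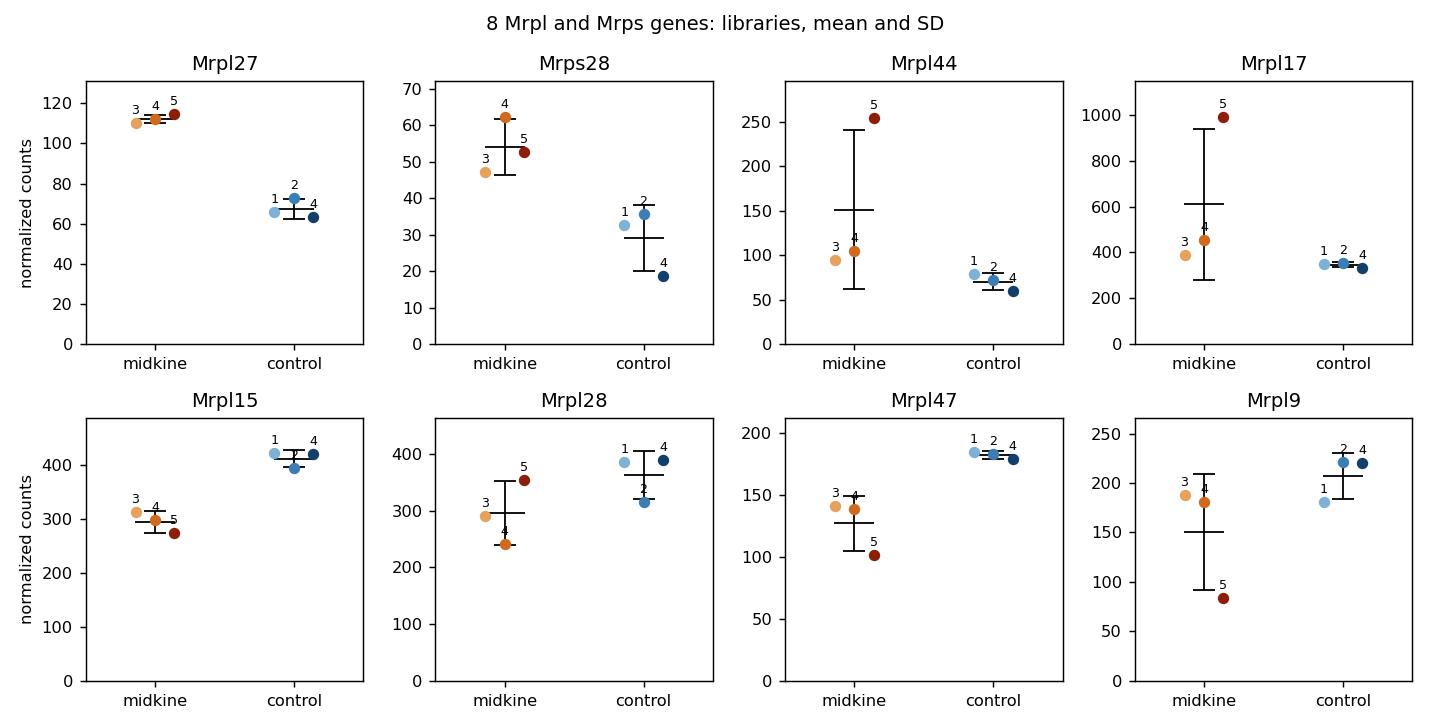
Normalized counts of 8 genes in each library, with midkine left of control, 1 numbered point per replicate, a line at the group mean and bars of 1 SD. Midkine 5 lay with the other midkine libraries for Mrpl27, Mrps28 and Mrpl15, far above them for Mrpl44 and Mrpl17, and far below them for Mrpl9.

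In a second set of genes the mean difference came mostly from midkine 5. Limma with array weights, where midkine 5 weighed 0.0967, still called Mrpl44, Mrpl17, Mrpl20, Mrps14, Mrps2 and Mrpl36 higher. It did not call Mrps18c or Mrps36. That setting called 9 of the 77 genes higher and 11 lower, and 37.5% of all genes tested. Among the midkine libraries it rests mostly on midkine 4. Mrpl44, a large-subunit protein specific to mitochondria with an RNase III fold, had 94.7, 105 and 254 normalized counts in midkine 3, 4 and 5, against 79.0, 71.6 and 60.2 in control 1, 2 and 4. All 3 midkine libraries lay above the controls, and midkine 5 was 3.62-fold the control mean. Its log2 fold change was 0.95 (SE 0.360; limma adjusted p = 0.210) on all 6 libraries and 0.51 (limma adjusted p = 0.0589) without midkine 5. Its exons overlap those of Wdfy1 on the other strand.

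Mrpl17 had 387, 456 and 988 normalized counts in midkine 3, 4 and 5, against 348, 355 and 333 in control 1, 2 and 4. The controls lay close together, and midkine 5 was 2.86-fold their mean. Its log2 fold change was 0.69 (SE 0.319; limma adjusted p = 0.274) on all 6 libraries and 0.28 (limma adjusted p = 0.1002) without midkine 5. Its upstream stretch holds the 1 NRF1 match among the 4 printed above. Mrpl20 had 218, 249 and 458 normalized counts with midkine, against 201, 165 and 205 in control. Mrps14, a small-subunit protein with a bacterial homolog, had 195, 219.6 and 398 with midkine, against 161, 163 and 178 in control. In both genes midkine 3 and 4 lay above the controls by less than midkine 5 did. Their log2 fold changes were 0.62 each on all 6 libraries (limma adjusted p = 0.265 for Mrpl20 and 0.245 for Mrps14), and 0.30 for Mrpl20 and 0.31 for Mrps14 without midkine 5.

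Mrps2, a small-subunit protein with a bacterial homolog, had 218, 269 and 444 normalized counts in midkine 3, 4 and 5, against 197, 169 and 226 in control 1, 2 and 4. Midkine 3 lay within the control range here, so the groups overlapped. Mrps18c, 1 of 3 relatives of bacterial protein S18 in mitochondria, had 219, 206 and 329 with midkine, against 185, 148 and 173 in control. Its exons overlap those of Gm43511 on the same strand. The other S18 relatives differed from it. Mrps18b, also in the small subunit, had 400.2, 357 and 787 with midkine, against 416, 411 and 463 in control, and its exons overlap those of Gm16279 on the other strand. Mrps18a, whose protein sits in the large subunit in spite of its name, had 288, 228 and 272 with midkine, against 289, 288 and 335 in control. None of the 3 passed the unweighted limma test on 6 or on 5 libraries, where the smallest adjusted p among them was 0.0985, for Mrps18c without midkine 5. With array weights limma called Mrps18a (log2 fold change −0.35, adjusted p = 0.0180), and Mrps18c had an adjusted p of 0.0644. Among the midkine libraries these weighted values rest mostly on midkine 4, the lowest of them for both genes.

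Mrps36 keeps its ribosomal symbol, but its protein is known as a subunit of the oxoglutarate dehydrogenase complex. It had 187, 197 and 300.4 normalized counts in midkine 3, 4 and 5, against 165, 146 and 168 in control 1, 2 and 4. Its pattern was like that of Mrps14, with midkine 5 the highest and the groups apart (log2 fold change 0.48, limma adjusted p = 0.259, and 0.27 without midkine 5).

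Midkine 5 was at least 2-fold the control mean for 11 of the 77 genes, which were Mrpl2, Mrpl11, Mrpl14, Mrpl17, Mrpl20, Mrpl36, Mrpl44, Mrps2, Mrps6, Mrps14 and Mrps35. Shares over all genes tested are not given here for this fold or for the fold of 0.5 used below. Of all genes tested, 41.8% had midkine 5 above all controls and 41.1% had it below them. After Mrpl44, the largest was Mrpl36, a small large-subunit protein whose bacterial homolog binds zinc, at 2.98-fold. It had 191, 223 and 519 normalized counts with midkine, against 173, 164 and 186 in control, and overlaps Ndufs6 on the other strand. Mrps35, a small-subunit protein specific to mitochondria, had 102, 113 and 290.5 with midkine, against 135, 126 and 133 in control. Midkine 3 and 4 lay below the controls there while midkine 5 was 2.21-fold their mean, so its log2 fold change was 0.19 on all 6 libraries and −0.29 without midkine 5.

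At the other end, midkine 5 was under 0.5 of the control mean for 1 gene, Mrpl9, whose bacterial homolog lies at the base of the L1 stalk. It had 188, 181 and 83.5 normalized counts in midkine 3, 4 and 5, against 181, 221 and 219.9 in control 1, 2 and 4, and its exons overlap those of Oaz3 on the other strand. Midkine 5 lay far below the controls, and midkine 3 and 4 were level with the lowest of them. Mrpl47 had 141, 138 and 102 with midkine, against 185, 183 and 179 in control, where the groups did not overlap (log2 fold change −0.53, limma adjusted p = 0.183, and 0.0558 without midkine 5). Its exons overlap those of Actl6a and Ndufb5 on the other strand. Mrps12, a small-subunit protein whose bacterial homolog takes part in decoding, had 536, 415 and 373 with midkine, against 546, 586 and 538 in control, without overlap between the groups (log2 fold change −0.35, limma adjusted p = 0.298).

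By place in the ribosome, the stalk that recruits elongation factors was read from 3 genes. Mrpl12, the stalk protein itself, had 655, 616 and 1233 normalized counts in midkine 3, 4 and 5, against 810.3, 636 and 706 in control 1, 2 and 4. Its stalk-base partner Mrpl10 had 276, 261 and 409 with midkine, against 276, 218 and 225 in control. Mrpl11, also at the stalk base, had 259, 258 and 529 with midkine, against 251, 255 and 258 in control. Midkine 5 lay above all controls in each of the 3, while midkine 3 and 4 lay within or next to the control range. Mrpl11 had the smallest spread of the 3 in control, 255 ± 3.56 (SD, n = 3), and midkine 5 was 2.08-fold that mean. Without midkine 5, their log2 fold changes were −0.17 for Mrpl12, 0.17 for Mrpl10 and 0.02 for Mrpl11. Exons of Mrpl10 and Mrpl12 overlap the models Gm11574 and Gm16755 on the other strand.

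Around the exit tunnel, through which the new chain leaves, Mrpl22 had 63.8, 84.4 and 82.6 normalized counts in midkine 3, 4 and 5, against 102, 96.1 and 106 in control 1, 2 and 4. All midkine libraries lay below the controls (log2 fold change −0.40, limma adjusted p = 0.282). Mrpl24 had 349.9, 368 and 477 with midkine, against 400.0, 362 and 410.3 in control. Mrpl23 had 39.6, 30.6 and 77.2 with midkine, against 37.9, 47.0 and 54.2 in control. The groups overlapped for both, and their log2 fold changes were 0.02 for Mrpl24 and −0.01 for Mrpl23, and −0.12 for Mrpl24 and −0.39 for Mrpl23 without midkine 5. Mrpl45, which ties the ribosome to the inner membrane, had 168, 162 and 266 with midkine, against 161, 166 and 175 in control, and Mrpl39 had 90.9, 99.2 and 113 with midkine, against 95.4, 87.9 and 66.1 in control. Midkine 5 was the highest library for both.

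Mrpl58, a release factor built into the large subunit that frees chains from stalled ribosomes, had 177, 139 and 137 normalized counts in midkine 3, 4 and 5, against 184, 169 and 204 in control 1, 2 and 4. Its groups overlapped through midkine 3 (log2 fold change −0.30, limma adjusted p = 0.371), and its exons overlap those of Ict1os on the other strand. Mrpl40 had 193, 160.5 and 117 with midkine, against 216, 183 and 185 in control. Mrpl19 had 203, 156 and 153 with midkine, against 235, 180.0 and 198 in control. Mrps27, a pentatricopeptide repeat protein of the small subunit, had 46.4, 52.8 and 35.4 with midkine, against 57.4, 48.1 and 65.1 in control. In these 3 genes midkine 5 was the lowest library and the groups overlapped.

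Levels in control spanned 32.5-fold, between a mean of 946 normalized counts for Mrpl18 and 29.1 for Mrps28, with a median of 207. Next to Mrpl18 stood Mrpl33 at 743 ± 37.4, Mrpl12 at 718 ± 87.6, Mrps12 at 557 ± 25.6 and Mrpl16 at 503 ± 52.3 (SD, n = 3 each). Mrpl33 and Mrpl12 did not differ beyond their spread. Mrpl18 had 854, 917 and 1505 in midkine 3, 4 and 5, against 951, 871 and 1015 in control 1, 2 and 4. Mrpl33 had 841, 876 and 1484 with midkine, against 772, 757 and 701 in control. Midkine 5 was highest in both, while for Mrpl16 it had 461, beside 462 and 443 in midkine 3 and 4, against 508, 449 and 553 in control. Exons of Mrpl18 overlap those of Tcp1 on the other strand and exons of Mrpl33 those of Gm43809 on the same strand. At the low end, above Mrps28, Mrpl23 averaged 46.4 ± 8.17, Mrps11 55.9 ± 6.03, Mrps27 56.9 ± 8.53 and Mrps31 63.9 ± 12.7 in control (SD, n = 3 each), and no neighbours among these 4 differed beyond their spread. Mrps11 had 66.7, 65.4 and 95.3 with midkine, against 55.4, 50.1 and 62.1 in control, and shares exon sequence with Mrpl46 on the other strand. Mrps31 had 69.6, 84.4 and 37.2 with midkine, against 63.6, 76.7 and 51.3 in control, with midkine 5 the lowest.

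The spread among midkine libraries was wider than among controls for 64 of the 77 genes, with a median ratio of the SDs of 2.96. The same share over all genes tested is not given here. In control the median coefficient of variation was 7.32%, next to a median of 6.98% that counting error alone gives at these read numbers. The median standard error of the log2 fold change was 0.200 on all 6 libraries and 0.134 without midkine 5.

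By subunit and descent, the 16 small-subunit proteins with a bacterial homolog had a median log2 fold change of 0.13, and the 10 specific to mitochondria 0.04. The 30 large-subunit proteins with a bacterial homolog had 0.08, and the 20 specific to mitochondria 0.04. Of the S18 relatives, only Mrps18c was placed with the bacterial homologs. Mrps18b and Mrps18a were placed with the proteins specific to mitochondria, so the grouping is approximate. Without midkine 5 the 4 medians were 0.04, −0.08, −0.09 and −0.03 in the same order. In midkine 5 alone, the median log2 difference from the control mean was 0.54 and 0.29 in the small subunit and 0.43 and 0.28 in the large one, again with the bacterial homologs first. The 45 genes with no exon of another gene over theirs had a median log2 fold change of 0.04 (−0.02 without midkine 5), and a median of 0.31 in midkine 5.

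By promoter letters, the 13 genes with an NRF1 match had a median log2 fold change of 0.20, and the 55 without it 0.03. Both medians were −0.02 without midkine 5. The 25 genes with the ETS letters had 0.04 and the 43 without them 0.05, and without midkine 5 these medians were 0.01 and −0.02. The 12 with the YY1 letters had −0.05 and the 56 without them 0.09, and without midkine 5 the medians were −0.14 and 0.01. In midkine 5 alone, the median log2 difference from the control mean was 0.54 with and 0.29 without the NRF1 letters, 0.18 with and 0.42 without the ETS letters, and 0.21 with and 0.31 without the YY1 letters. None of these differences between promoter groups was tested.

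The ribosomal RNAs of the same particle, encoded in mitochondria, lay on the other side in midkine 5. mt-Rnr2 had 177026, 215626 and 19137 normalized counts in midkine 3, 4 and 5, against 201869, 262208 and 241741 in control 1, 2 and 4. mt-Rnr1 had 77686, 83572 and 5594 with midkine, against 99421, 123442 and 117027 in control. Midkine 5 lay far below every other library for both. The log2 fold change was −1.38 for mt-Rnr2 (limma adjusted p = 0.368) and −1.77 for mt-Rnr1 (limma adjusted p = 0.318) on all 6 libraries. Without midkine 5, mt-Rnr1 fell (−0.49, limma adjusted p = 0.0463), while mt-Rnr2 had a log2 fold change of −0.26 (limma adjusted p = 0.401). The 2 RNAs together took 4.12, 4.69 and 0.377% of the reads in midkine 3, 4 and 5, against 4.91, 6.16 and 5.67% in control 1, 2 and 4. Against the summed Mrpl messages, mt-Rnr2 stood at a ratio of 14.2, 17.8 and 1.08 in midkine 3, 4 and 5, against 15.7, 21.8 and 18.7 in control 1, 2 and 4. Against the summed Mrps messages, mt-Rnr1 stood at 10.9, 12.2 and 0.622 with midkine, against 13.8, 18.5 and 16.2 in control. Midkine 3 lay below all controls in both ratios, and midkine 4 lay below them for mt-Rnr1 only. These are ratios of read numbers from a poly(A)-primed library and not of RNA molecules. The 11 mitochondrially encoded messages with a value had a median log2 fold change of −0.65 on all 6 libraries and −0.05 without midkine 5.

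**Figure D4:**
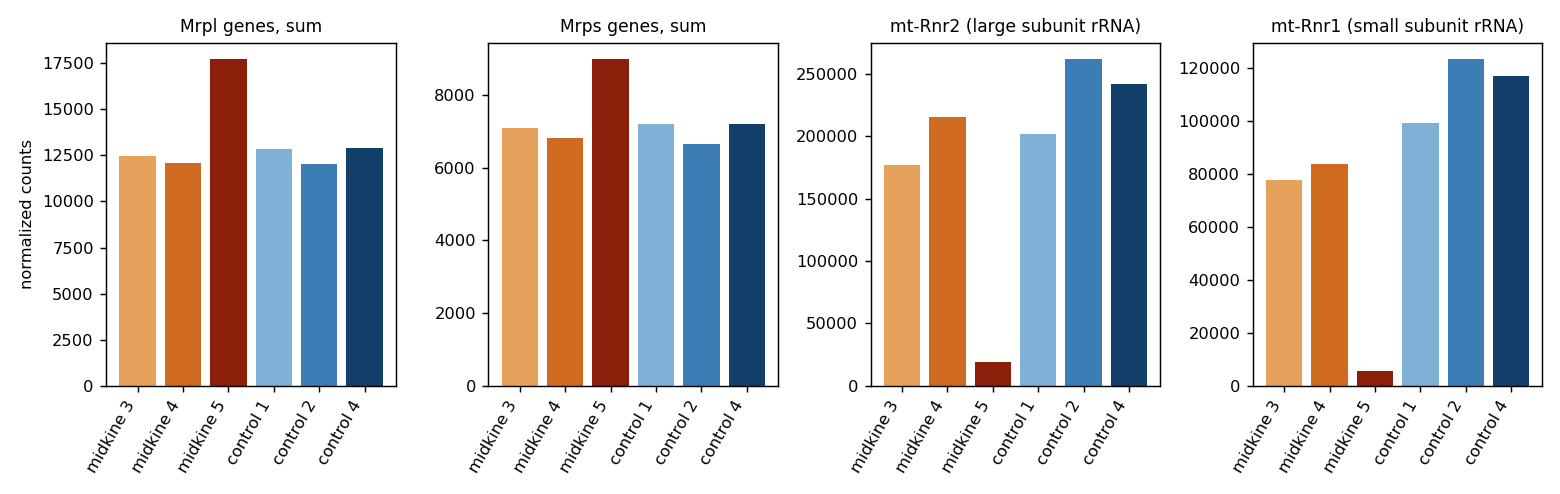
Normalized counts in each library of the summed Mrpl genes, the summed Mrps genes, mt-Rnr2 and mt-Rnr1, with 1 bar per library from 0 and the midkine libraries left of the controls. Midkine 5 had the highest bars for both sums, 17741 and 8996, and the lowest for both ribosomal RNAs, 19137 and 5594.

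Proteins of the same ribosome under other symbols numbered 5. Limma without array weights, edgeR and DESeq2 on all 6 libraries each called 0 of them. At an unadjusted p under 0.05 limma had 1, against 19.7% of all genes tested. Without midkine 5 limma called 2, both lower (8.52% of all genes tested were called lower there). Dap3, a GTP-binding small-subunit protein, had 395, 342 and 345 normalized counts in midkine 3, 4 and 5, against 458, 462 and 526 in control 1, 2 and 4, and fell without midkine 5 (log2 fold change −0.39, limma adjusted p = 0.0262). Gadd45gip1, a large-subunit protein, had 173, 136 and 313 with midkine, against 235, 239 and 188 in control. It fell without midkine 5 (log2 fold change −0.51, limma adjusted p = 0.0228). With array weights on all 6 libraries limma called Gadd45gip1 lower too (log2 fold change −0.63, adjusted p = 0.00121). Dap3 was also called lower there, while Ptcd3, Chchd1 and Aurkaip1 were not called. That setting called 37.5% of all genes tested. Chchd1, a small-subunit protein, had 569, 673 and 1344 with midkine, against 632, 549 and 549 in control. As among the 77, midkine 5 was the highest library for some and not for others.

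In the lists of assembly, translation and regulatory genes that follow, edgeR and DESeq2 on all 6 libraries called 0 genes. The limma counts for these lists are without array weights. Over all genes tested, limma had 19.7% at an unadjusted p under 0.05 on all 6 libraries, and called 18.4% without midkine 5 (9.92% higher and 8.52% lower). Of 26 genes for assembly of the mitochondrial ribosome and modification of its RNA, limma called 0 on all 6 libraries (3 at an unadjusted p under 0.05), and 1 higher (Ddx28) and 2 lower (Mrm1 and Mrm3) without midkine 5. Ddx28, an RNA helicase of large-subunit assembly, had 189, 214 and 174 normalized counts in midkine 3, 4 and 5, against 133, 139 and 126 in control 1, 2 and 4. It rose in the test without midkine 5 (log2 fold change 0.59, limma adjusted p = 0.00628). Mrm1, which methylates the large ribosomal RNA, had 78.3, 87.6 and 124 with midkine, against 141, 139 and 138 in control, and fell in that test (log2 fold change −0.74, limma adjusted p = 0.00233). Neither gene had overlapping groups. Of 11 mitochondrial translation factors, 0 were called by limma on 6 or on 5 libraries (1 at an unadjusted p under 0.05 on all 6). Of 22 mitochondrial tRNA synthetases, 0 were called on all 6 (3 at an unadjusted p under 0.05) and 2, both lower, without midkine 5 (Cars2 and Tars2). Of 12 genes for transcription of mitochondrial DNA and stability of its RNA, 0 were called on 6 or on 5 libraries (0 at an unadjusted p under 0.05 on all 6).

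Of 9 upstream regulators of mitochondrial genes, limma called 0 on all 6 libraries (2 at an unadjusted p under 0.05) and 2 without midkine 5, both lower (8.52% of all genes tested were called lower there). Myc, the growth-promoting transcription factor, had 52.2, 53.8 and 42.7 normalized counts in midkine 3, 4 and 5, against 99.5, 101 and 68.1 in control 1, 2 and 4. Its log2 fold change was −0.83 (SE 0.227; limma adjusted p = 0.132) on all 6 libraries and −0.72 (SE 0.201; limma adjusted p = 0.0174) without midkine 5. Gabpb2, which encodes a GABP subunit, had 428, 452 and 384 with midkine, against 542, 589 and 616 in control, and fell without midkine 5 (log2 fold change −0.40, limma adjusted p = 0.0144). Every midkine library lay below every control for both, and also for Gabpa, Gabpb1 and Yy1, making 5 of the 9 (15.3% of all genes tested). In midkine 5 these last were at 0.47, 0.61 and 0.61 of the control mean. Esrra had 58.0, 76.0 and 194 with midkine, against 60.5, 57.3 and 44.4 in control. Its groups overlapped, midkine 5 was 3.59-fold the control mean, and limma without weights did not call it (log2 fold change 0.82, adjusted p = 0.311). With array weights limma called Esrra higher (log2 fold change 0.44, adjusted p = 0.0477), and Myc, Gabpb2 and Pprc1 lower. That setting called 37.5% of all genes tested. Nrf1 had 226, 215 and 241 with midkine, against 226, 218 and 229.8 in control, with overlapping groups and a log2 fold change of 0.02.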

How the data were processed

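RNA was measured in 6 libraries prepared with Lexogen's QuantSeq 3′ FWD kit, which primes on poly(A), per the labels' protocols. The authors deposited a signal per gene symbol, namely counts divided by a size factor. Per the submitters' processing notes, the tools were Bowtie 1.0.0, TopHat2 2.0.10, FastQC 0.11.0, SAMtools 0.1.19, DESeq2 and HTSeq, with build GRCm38 (mm10). Annotation and strand setting of the counting were not given there. Within 0.01 reads, 100% of the values were whole multiples of a step particular to their library, which gave back whole reads. Intervals for single libraries are not given, and read numbers carry counting error besides the spread between libraries.

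Genes with a mean under 5 were left out, which left 13543. The test was limma 3.58.1 (lmFit, eBayes with trend, R 4.3.3) on log2(normalized count + 1), two-sided, with Benjamini-Hochberg adjustment over all 13543 genes and a threshold of 0.05. Fold changes are midkine minus control on that scale and are understated for low genes. Means ± SD are of normalized counts. On the recovered reads, DESeq2 1.42.0 and the quasi-likelihood test of edgeR 4.0.16 with TMM were run as well, and other pseudocounts, filters, scalings, variance moderation and sets of libraries were tried. Testing edgeR without midkine 5 was added after seeing the data. Each test was tried on simulated data first.

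The genes and lists were chosen with earlier results of these data known. Named genes were the 10 with the smallest p in each direction (mean of at least 20), the 5 highest and 5 lowest in control and 13 with a known role. Other genes named, such as Mrpl2, Mrpl36, Mrps35 and those of the other lists, were chosen after their values were seen. Gene positions and exon overlaps are from GENCODE M21 (GRCm38), which held all 77 genes, and promoter sequences from RefSeq (GRCm38.p6). No further per-sample columns (0) were in the table. Figures were drawn with matplotlib 3.10.9.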

Additional observations from a re-analysis of the deposited data

How the results depend on the processing

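No paired analysis was possible because the groups share only 1 replicate number. Over the 16 other settings fixed with the tests and 1 added later, the median log2 fold change of the 77 genes ranged from −0.04 (array weights) to 0.17 (without midkine 4). Genes called over the whole table numbered 0 on all 6 libraries, 10 with a pseudocount of 5, 9 with no filter on low values, 16 with quantile normalization, 7 with TMM, 10 with edgeR, 684 with DESeq2 and 5076 with array weights, a limma option that gave midkine 5 the weight 0.0967, the lowest of the 6. Leaving out 1 library gave 0 to 2497, the highest without midkine 5, where edgeR gave 2508. Of the 77, DESeq2 called 1, array weights 20 (26.0%, against 37.5% of all genes), leaving out 1 library 0 to 4, and edgeR without midkine 5 also 4. Groups did not overlap for 20 of the 77 genes (30.8% of all genes), and for 23 to 34 with 1 library left out (37.0 to 47.6% of all genes), where fewer values must separate. The sign turned round for Mrpl24 with quantile normalization (−0.035) and array weights (−0.10), and for Mrpl23 with edgeR (0.081) and DESeq2 (0.087). With array weights it also did for Mrpl18 (−0.052), Mrpl12 (−0.23), Mrps31 (0.37), Mrpl45 (−0.017) and Mrps18b (−0.22). With 1 library left out the log2 fold change ranged from −0.39 to 0.26 for Mrpl23, −0.30 to 0.28 for Mrps31, −0.12 to 0.10 for Mrpl24, −0.093 to 0.32 for Mrpl18, −0.17 to 0.33 for Mrpl12, −0.019 to 0.34 for Mrpl45 and −0.18 to 0.39 for Mrps18b. The other 26 of 33 named genes kept their sign under every setting. The cause of these shifts was not tested. Depth limits the low members most: Mrps28 had the fewest reads, 19 in 1 library.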

Other observations

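The cytosolic ribosome, which translates nuclear messages, gives a second set of ribosomal protein messages from the same libraries. The list was taken by name, as symbols of Rpl or Rps and a digit, Rplp0, Rplp1, Rplp2 and Rpsa, without -ps and Rps6k symbols. Whether each of them encodes a protein of that ribosome was not checked. The 91 genes summed to 381191, 349699 and 516954 normalized counts in midkine 3, 4 and 5, against 436933, 413901 and 413879 in control 1, 2 and 4. Midkine 5 was the highest library for 51 of the 89 that were tested, and for 34.6% of all genes tested. Midkine 3 and midkine 4 both lay below every control in this sum. On all 6 libraries limma called 0 of the 89 (11 at an unadjusted p under 0.05), edgeR and DESeq2 called 0 as well. Without midkine 5 limma called 12, all lower with midkine, where 8.52% of all genes tested were called lower and 9.92% higher. The unadjusted share of all genes tested on all 6 libraries was 19.7%. The median log2 fold change of the 89 was −0.05 on all 6 libraries and −0.18 without midkine 5, beside −0.03 for the 77 mitochondrial ribosomal protein genes without midkine 5. The difference between the 2 lists was not tested.

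Across genes, as a description, the log2 difference of midkine 5 from the control mean had a Pearson correlation of −0.01 with the GC content of the last 300 nt over the 77 genes and of 0.18 over 13476 genes of the table. The points share their libraries and are not independent replicates.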
